A study of Mus musculus with 9 samples.

Results

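The 8 genes described here are markers of lymphocytes, measured by RNA sequencing in mouse gastrocnemius, a calf muscle. They are the B cell genes Cd79a, Cd79b, Ms4a1, Cd22 and Blk and the T cell genes Cd3e, Cd3d and Cd3g, and all 8 were found by their symbols among the 56791 genes of the count table. They were chosen by name with their levels known, on how young replicate 1 differs from the other young libraries. Their levels in the young libraries, and so their difference between young and aged muscle, are given as a description with no test. There are 9 libraries, from female mice per the series title, 3 in each group. A young group and an aged group received saline as vehicle. The other aged group received ginkgolide B (GB), a ginkgo terpenoid known to block the receptor for platelet activating factor, at a daily dose of 12 mg per kg body weight. All dosing was by gavage and lasted 2 months. The titles carry 3M for young and 23M for aged vehicle libraries and no such mark for GB. Neither the strain nor whether replicates are separate animals is stated in the labels. The p-values below thus rest on spread from library to library, some of which may be technical.

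B cells sense antigen through a membrane immunoglobulin that cannot signal on its own. Cd79a and Cd79b encode the pair of chains that carry the signal inward, Blk encodes a kinase of the Src family that phosphorylates them, Cd22 encodes an inhibitory co-receptor that binds sialic acid, and Ms4a1 encodes the surface protein CD20. In T cells the same task falls to the CD3 complex, in which the epsilon chain (Cd3e) pairs with either the delta chain (Cd3d) or the gamma chain (Cd3g), so a T cell receptor needs all of them. Resting skeletal muscle holds few lymphocytes, while spleen, lymph node, blood and the linings of several organs hold many. In whole tissue, fewer cells of a type and less RNA per cell cannot be told apart.

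The 3 T cell genes lie side by side in the mouse genome, Cd3g and Cd3d head to head with Cd3e beyond them, yet their counts part company below. The sequences just before their starts are therefore shown with that of Cd79a, the B cell gene with the highest level. RefSeq (GRCm38.p6) promoter entries matched 5 of the 8 members. Shown 5′ to 3′ in the direction of the gene are the 250 bases before the RefSeq start of Cd79a (plus strand, chr7:24897247-24897496), Cd3g (minus strand, chr9:44980432-44980681), Cd3d (plus strand, chr9:44981536-44981785) and Cd3e (minus strand, chr9:45009612-45009861), with capitals for 2 motifs searched on both strands, AGGAAGT (a core bound by factors of the ETS family) and CAGGTG (an E-box, bound by factors such as E2A).
Cd79a: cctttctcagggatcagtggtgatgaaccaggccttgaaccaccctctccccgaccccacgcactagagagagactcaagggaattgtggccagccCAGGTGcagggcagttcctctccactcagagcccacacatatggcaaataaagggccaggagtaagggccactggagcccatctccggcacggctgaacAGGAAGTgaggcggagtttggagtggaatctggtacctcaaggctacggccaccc
Cd3g: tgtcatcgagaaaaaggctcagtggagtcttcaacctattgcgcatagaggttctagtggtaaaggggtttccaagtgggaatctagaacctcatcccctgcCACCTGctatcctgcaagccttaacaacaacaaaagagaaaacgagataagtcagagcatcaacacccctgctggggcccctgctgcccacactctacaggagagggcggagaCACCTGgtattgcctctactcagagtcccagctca
Cd3d: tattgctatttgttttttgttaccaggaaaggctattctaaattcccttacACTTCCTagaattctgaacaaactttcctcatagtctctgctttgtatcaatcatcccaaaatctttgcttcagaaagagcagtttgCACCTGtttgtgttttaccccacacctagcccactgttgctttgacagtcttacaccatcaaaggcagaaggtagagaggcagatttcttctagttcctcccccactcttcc
Cd3e: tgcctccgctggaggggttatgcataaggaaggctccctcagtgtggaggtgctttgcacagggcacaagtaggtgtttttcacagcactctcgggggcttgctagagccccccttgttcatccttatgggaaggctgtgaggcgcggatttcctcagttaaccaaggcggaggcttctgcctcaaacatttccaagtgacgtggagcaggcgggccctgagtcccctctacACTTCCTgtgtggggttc
Cd79a holds AGGAAGT from 55 to 49 bases and CAGGTG from 154 to 149 bases before its RefSeq start. Cd3g holds CAGGTG alone, on the other strand, at 148 to 143 and at 35 to 30 bases. Cd3d holds both on the other strand, at 199 to 193 and 112 to 107 bases. Cd3e holds AGGAAGT alone, on the other strand, at 18 to 12 bases. AGGAAGT occurs in 7.69% and CAGGTG in 17.2% of the 32851 promoter entries over the same 250 bases. The octamer ATTTGCAT, known from immunoglobulin promoters, occurs in 1.6% of entries and in none of the 5 member entries. GENCODE M21 starts Cd79a and Cd3e further upstream than RefSeq does, so by that annotation the AGGAAGT of Cd79a lies inside the gene and that of Cd3e spans its start. The motifs do not overlap here, and a match describes letters only.

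The 6 vehicle libraries held 51543383 to 61680520 counts each, and the GB libraries 39478427 to 44294097. Levels are given in CPM, counts scaled to the library total after TMM correction. Of counts from 2 to 21, 73.1 to 81.1% were even, against 50.2 to 51.9% in a range of higher counts that starts at 100. Counting intervals below therefore treat 2 counts as 1 molecule, and they cover counting error only. Across all genes tested, 757 (4.32%) were higher and 751 (4.28%) lower in aged than in young vehicle libraries, and 4281 (24.4%) were higher and 5045 (28.8%) lower with GB than in aged vehicle libraries. With library totals in place of TMM factors the GB split was 2030 higher and 8421 lower. GB libraries thus differ from vehicle libraries at a large share of all genes, which is the background for every GB count below.

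The 5 B cell members were abundant in 1 library of the 9. In young replicate 1 they summed to 60.6 CPM, against 0.503 and 0.676 CPM in young replicates 2 and 3, 0.493 to 1.2 CPM in aged vehicle and 0.64 to 1.62 CPM in aged GB libraries. Cd79a gave 1234 counts in young replicate 1 and 4 in each of the other young libraries. It gave 4, 31 and 7 counts in aged vehicle and 15, 4 and 12 in aged GB replicates 1, 2 and 3. Young replicate 1 was high, and the other 8 libraries overlapped across all groups.

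Cd79b, the partner of Cd79a, gave 1027, 14 and 16 counts in young replicates 1, 2 and 3, then 10, 20 and 14 in aged vehicle and 10, 6 and 4 in aged GB libraries. Ms4a1 gave 798, 2 and 3 counts in young, 10, 13 and 4 in aged vehicle and 10, 12 and 0 in aged GB libraries. The inhibitory co-receptor gene Cd22 gave 669, 4 and 12 counts in young, 2, 8 and 11 in aged vehicle and 0, 16 and 0 in aged GB libraries. The same library was the only high one for each of these genes. A count of 0 in GB replicate 3 allows up to 3 counts, or 0.096 CPM, if each count is 1 molecule. With 2 counts as 1 molecule the bound is higher. The kinase gene Blk gave 377, 5 and 12 counts in young, 2, 4 and 8 in aged vehicle and 16, 2 and 4 in aged GB libraries.

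The 3 T cell members followed the B cell members in part. Cd3d gave 65, 6 and 2 counts in young replicates 1, 2 and 3, then 2, 4 and 0 in aged vehicle and 0, 22 and 0 in aged GB libraries. Cd3g gave 71, 4 and 6 counts in young, 0, 0 and 4 in aged vehicle and 14, 10 and 0 in aged GB libraries. Both were highest in young replicate 1, at 0.96 CPM for Cd3d and 1.05 CPM for Cd3g. The next library was GB replicate 2 for Cd3d, at 0.66 CPM, and GB replicate 1 for Cd3g, at 0.445 CPM. Cd3e differed from all the others. It gave 90, 37 and 37 counts in young, 41, 93 and 63 in aged vehicle and 186, 144 and 178 in aged GB libraries. On the CPM scale it stood at 1.33, 0.642 and 0.533 in young, 0.721, 1.47 and 1.03 in aged vehicle and 5.91, 4.32 and 5.69 in aged GB libraries. Every GB library lay above every vehicle library for Cd3e, and young replicate 1 lay within the range of the aged vehicle libraries.

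**Figure D1:**
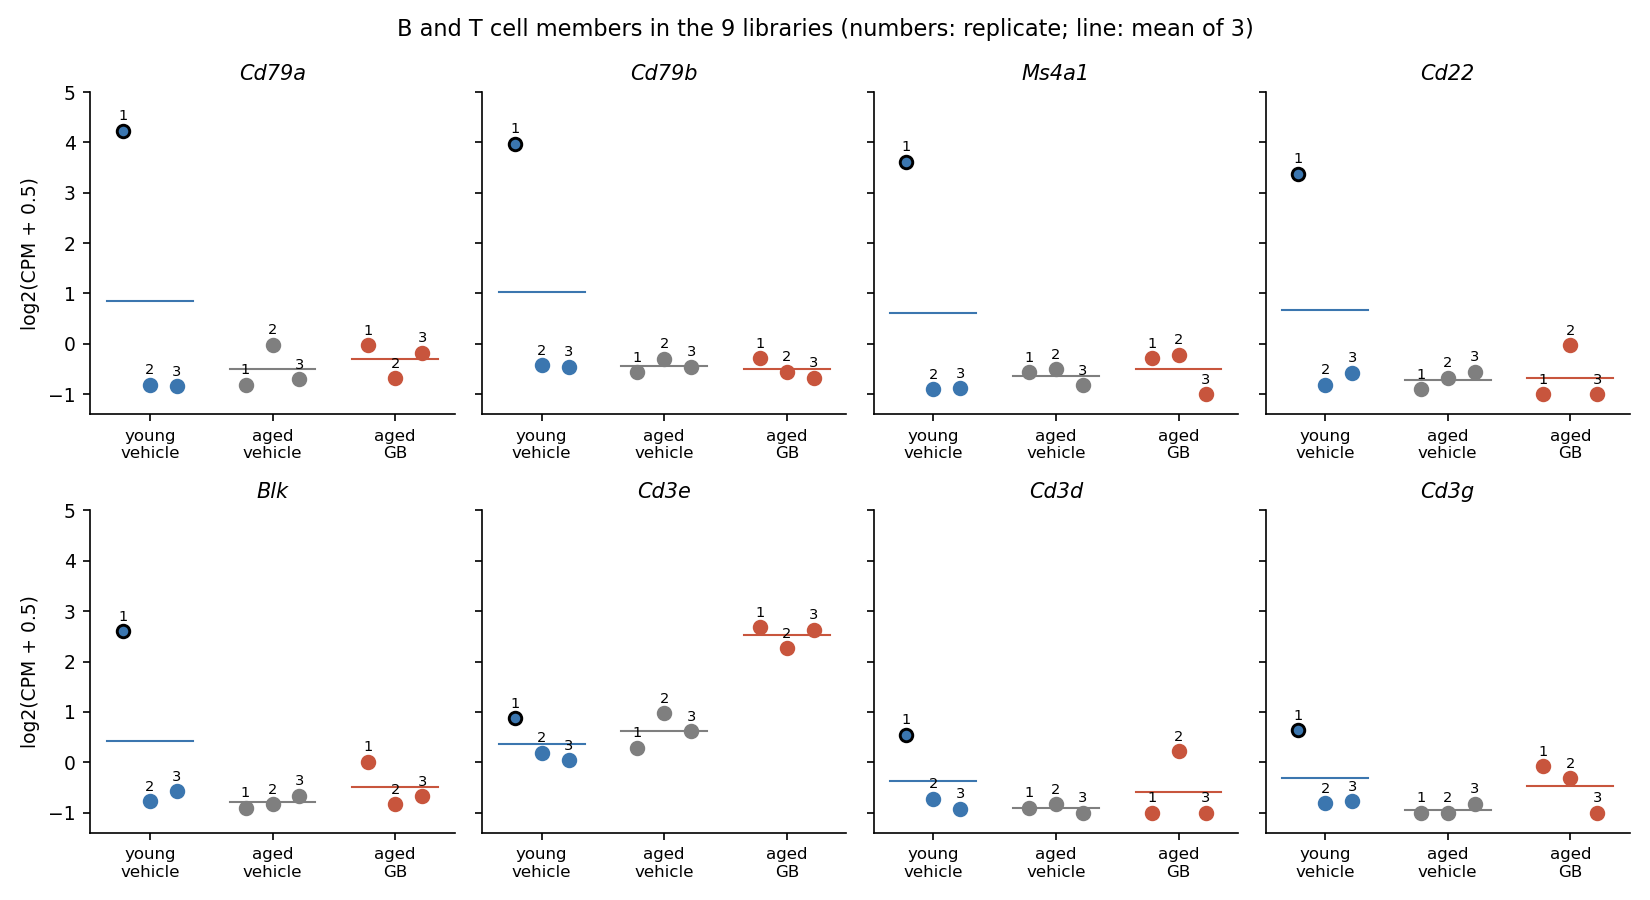
Level of each member in each library, as log2(CPM + 0.5), with 1 panel per gene, points numbered by replicate and a line at the mean of 3 libraries. Young replicate 1, ringed in black, stands alone for Cd79a, Cd79b, Ms4a1, Cd22 and Blk, and the 3 GB libraries stand highest for Cd3e, between 4.32 and 5.91 CPM.

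Set against the pooled CPM of young replicates 2 and 3, the level in young replicate 1 was 101 times as high for the summed B cell members (95% exact conditional interval 73.6 to 144) and 4.61 times as high for the summed T cell members (3.25 to 6.65). Ms4a1 had a ratio of 299.7 (103 to 3104) and Cd79a of 290 (113 to 1066). Cd22 followed at 78.5 (39.3 to 183), Cd79b at 64.3 (38.6 to 116) and Blk at 41.6 (21.9 to 104). Cd3d had a ratio of 15.3 (5.33 to 58.5) and Cd3g of 13.3 (5.29 to 44.1). Cd3e had the lowest ratio, 2.28 (1.45 to 3.63). The members were chosen on these values, and the intervals hold counting error between single libraries only, so they describe precision and test no order among the genes.

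Young replicate 1 was at least 4 times as high as both other young libraries for 7 of the 8 members, all but Cd3e. Of 18602 genes with at least 20 counts over the young libraries, 651 (3.5%) met that rule and 247 (1.33%) stood at least 4 times below both others. The members were chosen on this contrast, so nothing is read from their count. Against the highest of the other 8 libraries, young replicate 1 was 47.7 times as high for Cd79b, 37.2 times for Cd79a, 32.7 times for Ms4a1, 20.6 times for Cd22 and 11 times for Blk. The same ratio was 2.36 for Cd3g, 1.45 for Cd3d and 0.225 for Cd3e.

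**Figure D2:**
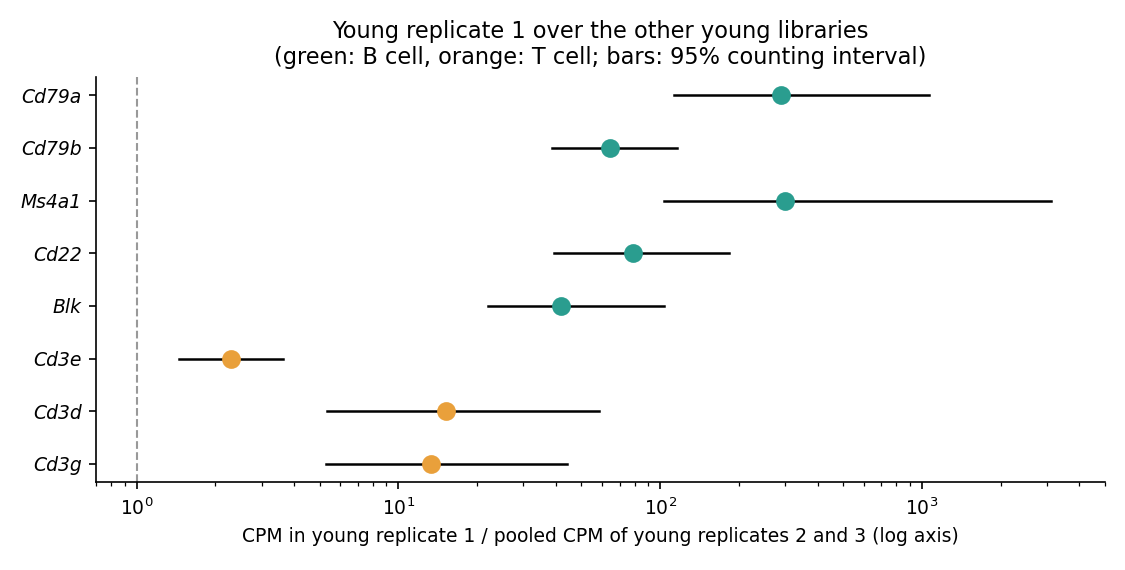
Ratio of the CPM in young replicate 1 to the pooled CPM of young replicates 2 and 3 for each member, on a log axis, with 95% counting intervals as bars. B cell genes lie between 41.6 and 299.7, Cd3d and Cd3g at 15.3 and 13.3, and Cd3e at 2.28.

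Levels can be compared between genes only per length, here as CPM per kilobase of the deposited gene length. In young replicate 1 this level was 12.5 for Cd79a and 10.6 for Cd79b, the chains that work as a pair. It was 2.06 for Blk, 1.96 for Cd22 and 1.91 for Ms4a1. The T cell genes came last, with 0.529 for Cd3d, 0.326 for Cd3e and 0.321 for Cd3g. The 3 chains of the CD3 complex thus lay close together in that library. In the GB libraries they did not. The level per kilobase of Cd3e was 1.45, 1.06 and 1.4 in GB replicates 1, 2 and 3, while that of Cd3g was 0.136, 0.0918 and 0, and that of Cd3d was 0, 0.364 and 0. In young replicates 2 and 3 Cd3e was at 0.157 and 0.131, Cd3g at 0.0212 and 0.0264, and Cd3d at 0.0574 and 0.0159 CPM per kilobase. Cd3e was the highest of the 3 T cell genes in those libraries too.

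Averaged within groups, the young vehicle level was 6.12 ± 10.5 CPM for Cd79a, 5.22 ± 8.62 for Cd79b, 3.96 ± 6.78 for Ms4a1, 3.38 ± 5.64 for Cd22 and 1.94 ± 3.14 for Blk (SD, n = 3). Each SD exceeds its mean, because 1 library carries nearly all of the signal. In aged vehicle libraries the same genes stood at 0.225 ± 0.23, 0.241 ± 0.0705, 0.149 ± 0.0736, 0.114 ± 0.0735 and 0.0766 ± 0.0495 CPM in that order. In aged GB libraries they stood at 0.327 ± 0.185, 0.209 ± 0.0981, 0.226 ± 0.197, 0.16 ± 0.277 and 0.232 ± 0.242 CPM. Cd3e stood at 0.835 ± 0.432 CPM in young vehicle, 1.07 ± 0.375 in aged vehicle and 5.31 ± 0.862 in aged GB libraries. The young and aged vehicle levels of Cd3e differ by less than either SD, while the GB level lies apart.

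Markers outside the 8 members show how wide the pattern of young replicate 1 is. Of 22 further B cell markers, each with at least 20 counts over the young libraries, 19 were at least 4 times as high in young replicate 1 as in both others, against 3.5% of all genes. Igkc, the constant region of the kappa light chain, stood at 72.3 CPM in young replicate 1 and at 0.538 and 0.345 CPM in young replicates 2 and 3. Pax5, the factor that sets B cell identity, stood at 8.17, 0 and 0.0864 CPM. Ighd and Cr2, which mature B cells carry, stood at 14.1 and 9.9 CPM against at most 0.416 CPM in the other young libraries. Ighm, the mu heavy chain, was high there too, at 113 CPM, but it was far from absent elsewhere, at 22.3 and 23.6 CPM.

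Of 20 further T cell markers with enough counts, 16 met the same rule. Cd4 stood at 2.3 CPM in young replicate 1 against 0.139 and 0.173 CPM, Cd8a at 1.89 against 0.0174 and 0.0576 CPM, and Ccr7, a homing receptor of naive T cells, at 2.75 against 0.104 and 0.144 CPM. Cd247, which encodes the zeta chain of the same receptor, did not meet it, at 1.74, 1.16 and 1.5 CPM. Cd28 did not meet it either, at 5.51, 2.88 and 3.92 CPM. Cd3e, Cd247 and Cd28 were thus among the T cell genes with a level outside young replicate 1 that most T cell markers lacked. Plasma cell markers met the rule in 3 of 6 cases, with Igha at 37.5 CPM and Jchain, the joining chain of secreted IgA and IgM, at 19.8 CPM against at most 0.677 CPM in the other young libraries. NK and cytotoxic markers met it in 3 of 8 cases and antigen receptor signalling genes in 6 of 20, among them the T cell kinase gene Lck at 3.26 CPM against 0.0694 and 0.0576 CPM.

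Other blood and immune lists varied. Of 10 macrophage markers 0 met the rule, and their summed level was 132, 135 and 130 CPM in young replicates 1, 2 and 3. Dendritic cell, mast cell and red blood cell markers also gave 0, of 7, 5 and 5. Neutrophil markers gave 1 of 4, S100a9 at 164, 30 and 4 counts, and platelet markers 1 of 4, Gp9 at 20, 0 and 0 counts. Of 9 pan-leukocyte genes 4 met it, among them Ptprc (CD45) at 24.7 CPM against 4.82 and 5.25 CPM. Of 8 lymph node markers 5 had enough counts and 4 met it, with the lymphotoxin gene Ltb at 9.16 CPM against 0.104 and 0.0288 CPM and the follicle chemokine gene Cxcl13 at 3.52 against 0.729 and 0.288 CPM. Markers of a lymph node's high endothelial venules were too low to read. Glycam1 was at 0 counts in all 3 young libraries, Chst4 was at 2, 0 and 0 counts and Madcam1 at 12, 0 and 4. The lymphatic chemokine gene Ccl21a stood at 11.6, 11.9 and 10.2 CPM.

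**Figure D3:**
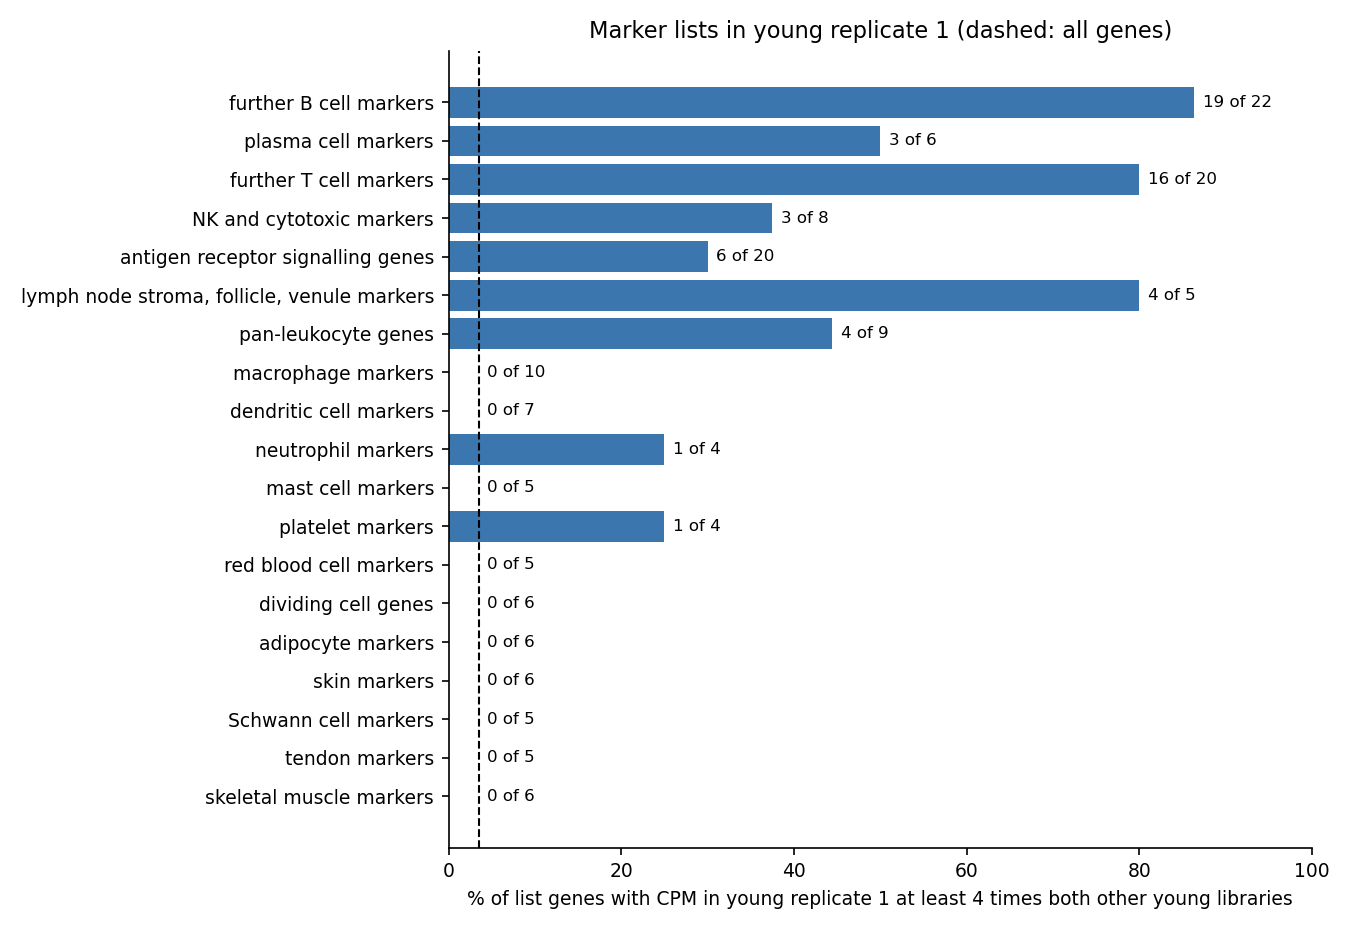
Share of the genes of each marker list whose CPM in young replicate 1 was at least 4 times that in both other young libraries, with counts beside the bars and a dashed line at the share over all genes, 3.5%. B cell markers reach 19 of 22 and T cell markers 16 of 20, while macrophage markers stand at 0 of 10.

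Genes best known from other organs were high in young replicate 1 as well. Lists for 9 organs were drawn up after their values had been seen, so their counts are descriptions. All 13 liver genes met the rule of 4 times both others and summed to 125 CPM in young replicate 1, against 0.281 to 7.86 CPM in the other 8 libraries. The serum albumin gene Alb gave 3884, 18 and 28 counts in young replicates 1, 2 and 3. Lung genes summed to 39.6 CPM against 0.246 to 1.46 CPM, with the club cell gene Scgb1a1 at 1541, 0 and 4 counts and the surfactant gene Sftpc at 638, 0 and 0. Kidney genes summed to 30.4 CPM against 0.0947 to 5.12 CPM, with the proximal tubule gene Slc34a1 at 449, 0 and 0 counts.

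Spleen genes summed to 13.1 CPM in young replicate 1 against 0.0694 to 0.48 CPM in the others. They include Tlx1, a factor needed to form the spleen, at 87, 2 and 0 counts, and Marco and Spic, genes of splenic macrophages, at 422, 0 and 0 and at 188, 2 and 8 counts. Heart genes summed to 43.6 CPM against 2.29 to 4.18 CPM, with the cardiac myosin gene Myh6 at 2328, 144 and 185 counts. Exocrine pancreas genes summed to 6.35 CPM against 0 to 0.254 CPM. Intestine, brain and testis genes did not stand apart in sum. Intestine genes summed to 5.5 CPM in young replicate 1 and 4.84 to 26.6 CPM in the others, although 2 of 4 with enough counts met the rule. Brain and testis genes met it in 0 of 2 cases each. Skin markers went the other way among the young libraries, with sums of 14.1, 111 and 83.5 CPM in young replicates 1, 2 and 3. Their sums were 12.7 to 15.6 CPM in aged vehicle and 14.3 to 20.2 CPM in aged GB libraries. For skin markers young replicates 2 and 3 thus stood apart. Skeletal muscle markers summed to 105735, 113176 and 116034 CPM in the same order, so young replicate 1 is a muscle library by its own markers. Lymphocyte, liver, lung, kidney, spleen, heart and pancreas genes thus moved together in 1 library, and the part of the other organs' RNA in the lymphocyte levels was not tested.

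**Figure D4:**
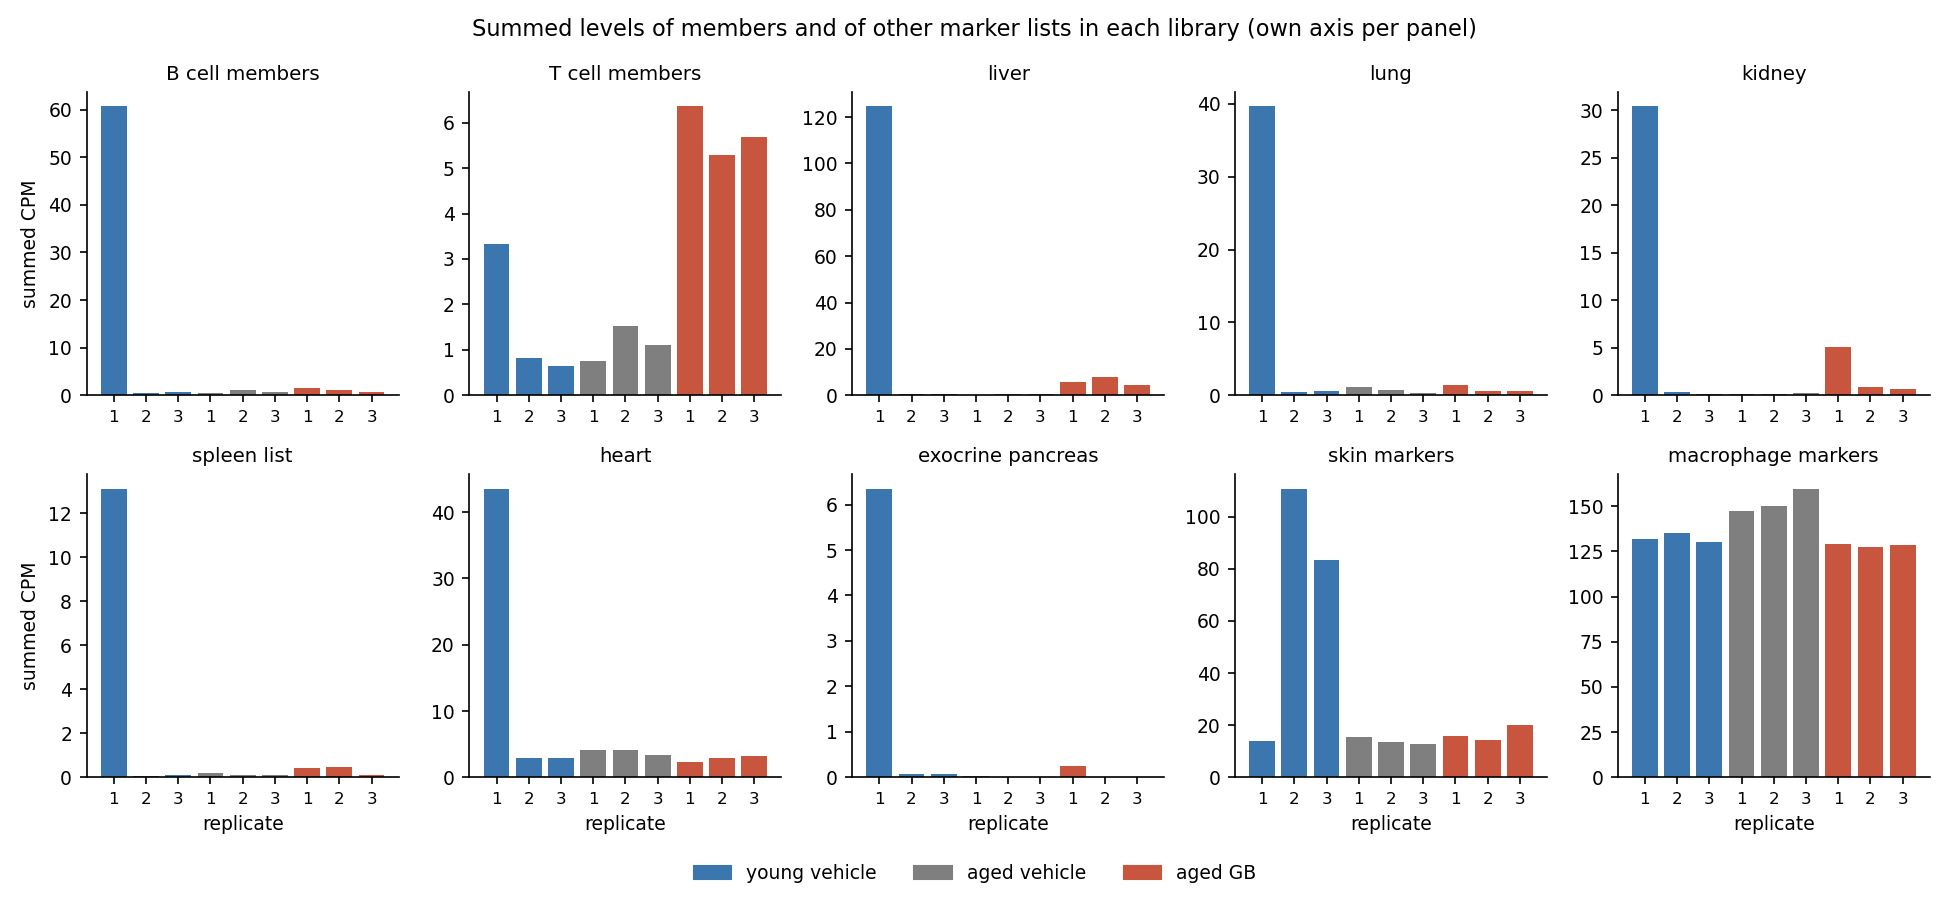
Summed CPM of the B and T cell members and of 8 other marker lists in each of the 9 libraries, with bars coloured by group, numbered by replicate and drawn on an axis of their own per panel. Young replicate 1 is highest for the B cell members and for liver, lung, kidney, spleen, heart and pancreas genes, and level with the rest for macrophage markers. For skin markers young replicates 2 and 3 stand above all other libraries, and young replicate 1 is level with the aged libraries.

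The genes whose levels across the 9 libraries were most like the mean of the 8 members came from the same set. Over 12829 other genes whose mean reached 0.5 CPM, the 10 with the highest Pearson r of log2(CPM + 0.5) included Ahsg, Serpina3k, Serpina1b, Slc34a1, Gc, Ltb, Sftpc, Scgb1a1 and Apoa2, with r from 0.974 to 0.986. Of these, 5 are genes of plasma proteins made by the liver (Ahsg, Serpina3k, Serpina1b, Gc and Apoa2), while Ltb is a lymphocyte gene. These values share young replicate 1. Over the other 8 libraries, r fell to between 0.468 for Scgb1a1 and 0.963 for Ahsg. Among the members themselves, the 21 pairs without Cd3e had r from 0.673 to 0.984 (median 0.889) over 9 libraries and from -0.396 to 0.833 (median 0.341) over 8, at counts near 0. The 7 pairs with Cd3e had r from -0.117 to 0.23 over 9 libraries.

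Ranked by the ratio of young replicate 1 to the higher of young replicates 2 and 3, with a floor of 3 counts, the first 15 genes included Scgb1a1, Cd79a, Ms4a1, Kap, Serpina3k, Sftpc, Apoa1, Alb, Igkc, Slc34a1, Ahsg, Marco and Slc27a2. The B cell genes Cd79a, Ms4a1 and Igkc are among these, and T cell genes are 0 of the 15. The first, Scgb1a1, had a ratio of 395, followed by 263 for Cd79a. For Serpina3k, a plasma protease inhibitor gene with 648, 0 and 0 counts, young replicate 1 was at least 184-fold higher than the floor per library.

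The first comparison of the series design sets aged against young muscle under vehicle. Among lymphocyte lists outside the members, edgeR's quasi-likelihood test with Benjamini-Hochberg adjustment called few genes. Over all genes 4.32% were higher and 4.28% lower. Of 16 further B cell markers tested, 0 were higher and 1 lower in aged muscle, with a median log2 fold change of -3.4 against -0.00216 over all genes. Without young replicate 1, where 708 genes (3.88%) were higher and 748 (4.1%) lower over all genes, 1 was higher and 1 lower, and the median was -0.31. At an unadjusted p under 0.05 the same test gave 9 of the 16 with all libraries and 2 without young replicate 1. The share of all genes under that threshold is not given, so nothing is read from these counts.

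The B cell marker that fell was Ly6d, which stratified epithelium also carries. It stood at 6.71, 2.74 and 1.9 CPM in young and 0, 0.0632 and 0.0328 CPM in aged vehicle replicates 1, 2 and 3, a log2 fold change of -6.75 (adjusted p = 0.000489). Skin markers summed to 14.1, 111 and 83.5 CPM in young replicates 1, 2 and 3. In aged vehicle libraries they summed to 12.7 to 15.6 CPM. Ly6d was highest in young replicate 1, the young library with the lowest skin sum. The part of skin RNA in the Ly6d level was not tested. Igkc turned with the library. Its log2 fold change with age was -3.07 (adjusted p = 0.394) with all libraries and 2.73 (adjusted p = 0.000306) without young replicate 1. By library, Igkc stood at 72.3, 0.538 and 0.345 CPM in young and 2.04, 2.78 and 3.89 CPM in aged vehicle replicates, so each aged library lay above young replicates 2 and 3 and below young replicate 1.

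Against 4.32% higher and 4.28% lower over all genes, 0 of 16 further T cell markers tested with age were higher and 1 was lower. This was Cd28, the co-stimulatory receptor of T cells, at 5.51, 2.88 and 3.92 CPM in young and 1.11, 0.837 and 1.08 CPM in aged vehicle replicates (log2 fold change -2.02, adjusted p = 0.0301). Leaving out young replicate 1 (adjusted p = 0.0678) or 3 (0.0821), or aged vehicle replicate 1 (0.0843), 2 (0.118) or 3 (0.104), ended the Cd28 call, and the adjusted p ranged from 0.00109 to 0.118 over 19 alternatives. The median log2 fold change of the list was -2.16 with all libraries and -0.09 without young replicate 1. Of the 16, 7 had an unadjusted p under 0.05 in edgeR with all libraries and 1 without that library. Of 5 plasma cell, 4 NK and cytotoxic and 20 antigen receptor signalling genes tested, edgeR called 0 with age in either direction, with 1, 1 and 4 at an unadjusted p under 0.05. DESeq2 called 0, 0 and 2 of them and limma-voom 0, 0 and 1, against 2400 and 2105 over all genes. The counts at an unadjusted p again stand without a share over all genes, and nothing is read from them.

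The second comparison sets aged mice given GB against aged mice given vehicle, and its difference is between groups that hold none of the young libraries on which the members were chosen. The spread per gene and the filter on low counts still used all 9 libraries. Of the 8 members, 7 passed the filter on low counts and were tested, and Cd3d did not pass. Blk, Cd22 and Cd3g did not pass where only the 2 groups compared were used, so their place among the 7 rests on young libraries. Cd3e rose by 2.30 on the log2 scale (SE 0.38, adjusted p = 0.000268, edgeR's quasi-likelihood test), with every GB library above every aged vehicle library. It was called in all 20 alternatives, with log2 fold changes of 1.73 to 2.58. The others were not called. Their log2 fold changes were 0.51 (SE 2.39) for Cd79a, -0.21 (SE 1.90) for Cd79b, 0.60 (SE 2.37) for Ms4a1, 0.50 (SE 2.32) for Cd22 and 1.56 (SE 1.68) for Blk. For Cd3g the value was 3.36 (SE 1.61, adjusted p = 0.0989). The called share of members, 1 of 7 higher and 0 lower, stands beside 24.4% and 28.8% over all genes.

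Young replicate 1 also sets the width of these errors, because all 9 libraries share 1 estimate of spread per gene. Without it, the SE fell to 0.91 for Cd79a, 0.75 for Cd79b, 1.09 for Ms4a1, 1.34 for Cd22 and 1.05 for Blk, and none of the 5 was called. Over all genes 4301 (23.6%) were then higher and 5211 (28.6%) lower with GB. The adjusted p of Cd3e was 4.7e-05 and that of Cd3g 0.0756 without that library. At counts of 0 to 31 in the GB and aged vehicle libraries, changes in the B cell members of the size of these errors were not detectable.

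Few other T cell genes were called with GB. Cd3d was at 0 counts in GB replicates 1 and 3, which allows up to 0.0954 and 0.096 CPM if each count is 1 molecule. Cd3g was at 0 in GB replicate 3. Of 16 further T cell markers tested, 1 was higher and 0 lower with GB, against 24.4% and 28.8% of all genes, and the median log2 fold change was 0.60 against -0.05 over all genes. The gene called was Trbc1, a constant region of the T cell receptor beta chain, at 0.0704, 0 and 0 CPM in aged vehicle and 1.46, 0.33 and 0.192 CPM in aged GB replicates (adjusted p = 0.0429). Trbc1 did not pass the filter where only the 2 groups compared were used, so its place among the 16 tested rests in part on young replicate 1. Its call was lost in 9 of 18 alternatives, and its adjusted p ranged from 0.00207 to 0.17 over the 18. The 9 include leaving out aged vehicle replicate 2 (adjusted p = 0.123) or 3 (0.124) or GB replicate 1 (0.17), 2 (0.0607) or 3 (0.0521). Trac, the alpha chain's constant region, stood at 0.176, 0.189 and 0.131 CPM in aged vehicle and 0.0636, 0.42 and 0 CPM in aged GB replicates. Cd247 had a log2 fold change of 0.34 (SE 0.41, adjusted p = 0.51) and was not called.

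The median log2 fold change of the 16 further B cell markers tested with GB was 0.07. Against 24.4% higher and 28.8% lower over all genes, 1 of them was higher and 0 lower. This was Ighm, at 26.7, 27.6 and 22 CPM in aged vehicle and 148, 84.8 and 94 CPM in aged GB replicates (log2 fold change 2.10, SE 0.69, adjusted p = 0.0392). Without young replicate 1, 3 were higher: Ighm (adjusted p = 3.08e-06), Igkc (7.29e-07) and the lambda chain gene Iglc2 (0.00266). Over all genes 23.6% were then higher. Igkc and Iglc2 are named here after their values were seen. Iglc2 gave only 1, 2 and 2 counts in aged vehicle and 10, 62 and 6 in aged GB replicates. Igkc stood at 2.04, 2.78 and 3.89 CPM in aged vehicle and 17.4, 27 and 21.8 CPM in aged GB replicates, so its groups do not overlap. With all libraries its log2 fold change was 2.92 (SE 1.83, adjusted p = 0.227). The Ighm call was lost without any 1 of the aged vehicle replicates 1, 2 and 3 (adjusted p = 0.1, 0.0962 and 0.117) or the GB replicates 1, 2 and 3 (0.11, 0.055 and 0.069). It was also lost with library totals (0.0968), with no filter (0.0798) and with an offset for gene length (0.105), and its adjusted p ranged from 3.08e-06 to 0.117 over 20 alternatives.

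Plasma cell genes gave 1 higher and 0 lower of 5 tested, against 24.4% and 28.8% of all genes. Mzb1, a chaperone of antibody secretion, stood at 0.141, 0.0947 and 0.345 CPM in aged vehicle and 0.381, 0.75 and 0.96 CPM in aged GB replicates (adjusted p = 0.027). The Mzb1 call was lost in 8 of 19 alternatives, and its adjusted p ranged from 0.00929 to 0.169 over the 19. The 8 include leaving out aged vehicle replicate 1 (adjusted p = 0.0907) or 2 (0.108) or GB replicate 2 (0.0565) or 3 (0.0817). Without young replicate 1, 3 were higher, with Jchain (adjusted p = 0.00304) and Igha (0.0279) beside Mzb1 (0.038). Over all genes 23.6% were then higher. Jchain stood at 0.352, 0.568 and 1.22 CPM in aged vehicle and 4.32, 2.64 and 1.98 CPM in aged GB replicates. The B cell identity gene Pax5 was not called. It stood at 0.0704, 0.253 and 0.131 CPM in aged vehicle and 0.318, 0.06 and 0 CPM in aged GB replicates, and had a log2 fold change of -0.28 (adjusted p = 0.93).

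**Figure D5:**
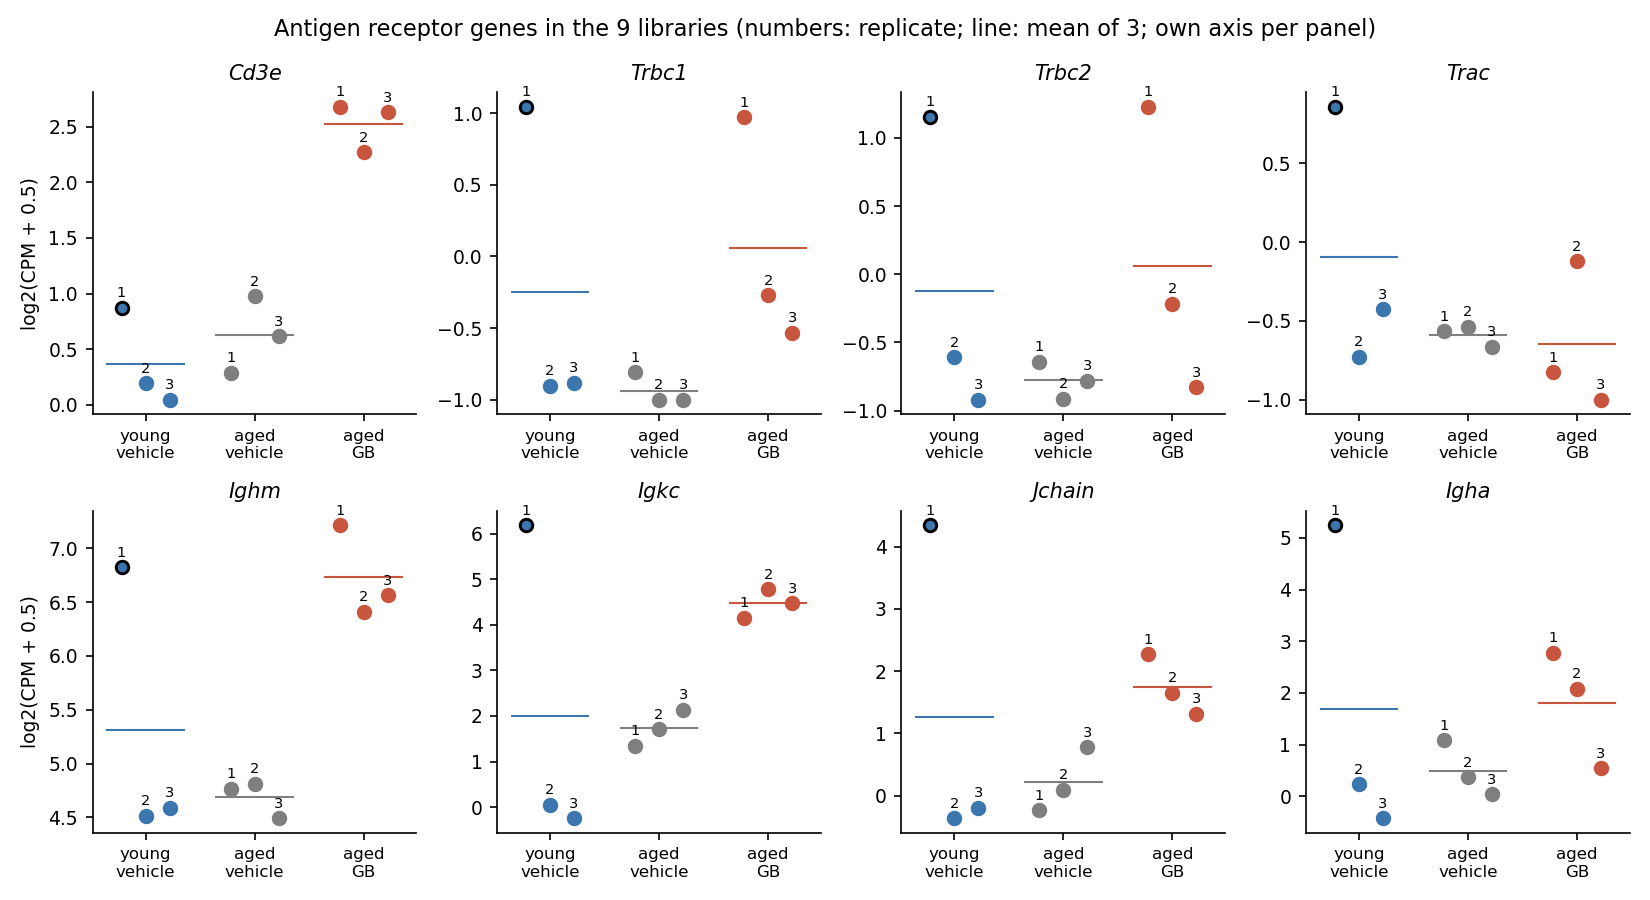
Level of 8 antigen receptor genes in each library, as log2(CPM + 0.5), with points numbered by replicate, a line at the mean of 3 libraries and an axis of its own per panel. The GB libraries lie above all aged vehicle libraries for Cd3e, Trbc1, Ighm, Igkc and Jchain, and overlap them for Trbc2, Trac and Igha.

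Among NK and cytotoxic markers 2 of 4 tested were higher and 0 lower with GB, against 24.4% and 28.8% of all genes. Ccl5, a chemokine of activated T and NK cells, stood at 0.369, 0.158 and 0.214 CPM in aged vehicle and 2.29, 2.16 and 0.448 CPM in aged GB replicates (adjusted p = 0.0143). Its call was lost in 3 of 19 alternatives, and its adjusted p ranged from 0.00142 to 0.0724 over the 19. The 3 include leaving out aged vehicle replicate 2 (adjusted p = 0.0617) or 3 (0.0547). Klrk1, which encodes the receptor NKG2D, had an adjusted p of 0.0347. It gave 2, 2 and 13 counts in aged vehicle and 36, 14 and 6 in aged GB replicates. In CPM its groups overlap, with GB replicate 3 at 0.192 and aged vehicle replicate 3 at 0.214. The Klrk1 call was lost in 6 of 19 alternatives, and its adjusted p ranged from 0.0127 to 0.177 over the 19. The 6 include leaving out young replicate 3 (adjusted p = 0.0561), aged vehicle replicate 1 (0.119) or 2 (0.127) or GB replicate 1 (0.177).

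Downstream of the receptors, 20 signalling genes were tested with GB and 1 was higher and 5 lower, with a median log2 fold change of -0.05. Over all genes 24.4% were higher and 28.8% lower. Blnk, the adaptor of B cell receptor signalling, rose by 1.19 (SE 0.31, adjusted p = 0.00672), from 1.18, 1.31 and 2.3 CPM in aged vehicle to 3.31, 3.75 and 3.87 CPM in aged GB replicates. Its call was lost with library totals (adjusted p = 0.124). Nfatc1, a transcription factor that receptor signals activate and that muscle also uses, fell by 0.60 (SE 0.09, adjusted p = 7.17e-05), a call lost with the offset for gene length (0.107). Plcg1, a phospholipase found in many cell types, had a log2 fold change of -0.32 (adjusted p = 0.0131), which turned to 0.14 (adjusted p = 0.236) with that offset. The Plcg1 call was lost in 1 further alternative. Pik3ap1, an adaptor for B cell co-receptors, had a log2 fold change of -1.35 (adjusted p = 0.0242). The Pik3ap1 call was lost in 6 of 20 alternatives, and its adjusted p ranged from 0.0034 to 0.0727 over the 20. The 6 include leaving out aged vehicle replicate 1 (0.0592) or 3 (0.0548) or GB replicate 2 (0.058) or 3 (0.0727).

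Other leukocytes are given for comparison. The sum of 10 macrophage markers was 147 to 160 CPM in aged vehicle and 127 to 129 CPM in aged GB libraries. With GB, 1 of 10 was higher and 4 were lower. Over all genes 24.4% were higher and 28.8% lower with GB. Adgre1, the macrophage surface protein F4/80, fell from 5.79 CPM in the middle aged vehicle library to 1.74 CPM in the middle GB library (log2 fold change -1.89, adjusted p = 6.93e-06), and Csf1r, the receptor that macrophages need to survive, fell by 0.85 (adjusted p = 2.48e-05). C1qa, a complement gene of tissue macrophages, was the 1 called higher (log2 fold change 0.56, adjusted p = 0.00166), but stood at -0.0026 with library totals and -0.24 with the offset for gene length. The lymphatic chemokine gene Ccl21a rose from 7.07, 9.82 and 8.66 CPM in aged vehicle to 22.1, 15.8 and 17.4 CPM in aged GB replicates (log2 fold change 1.11, adjusted p = 9.2e-05), a call lost with that offset (0.25, adjusted p = 0.18). Of 9 pan-leukocyte genes tested with GB, 0 were higher and 1, Arhgdib, was lower (log2 fold change -1.01, adjusted p = 0.0105). Without young replicate 1, 2 were higher and 3 lower, against 23.6% and 28.6% of all genes. Ptprc, carried by nearly all leukocytes, had a log2 fold change of -1.13 (adjusted p = 0.19), and -1.14 (adjusted p = 0.00543) without young replicate 1. Coro1a, an actin-binding protein of leukocytes, went the other way, with 0.99 (adjusted p = 0.227), and 0.98 (adjusted p = 0.00149) without that library. Cd52, a surface protein of lymphocytes, had 1.98 (adjusted p = 0.0781), and 1.97 (adjusted p = 0.0044) without it, and is named after its values were seen. Liver genes summed to 0.281 to 0.742 CPM in aged vehicle and 4.25 to 7.86 CPM in aged GB libraries, and their part in the levels of Ighm, Igkc and Jchain was not tested.

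Neighbouring genes are given because no source used here gives the use of strand, so reads of overlapping genes cannot be told apart. In the GENCODE annotation of GRCm38 the members lie on chromosomes 7 (Cd79a, 24897381 to 24902197, and Cd22, 30865402 to 30880342), 11 (Cd79b, 106311341 to 106314762), 19 (Ms4a1, 11249675 to 11266241), 14 (Blk, 63372836 to 63417037) and 9 (Cd3g, 44969572 to 44980431, Cd3d, 44981786 to 44987339, and Cd3e, 44998740 to 45009627). There Cd3e is overlapped on the opposite strand by Gm48719, which was at 10, 11 and 7 counts in young, 13, 14 and 22 in aged vehicle and 13, 11 and 17 in aged GB replicates. Cd3e itself gave 144 to 186 counts with GB, and the part of Gm48719 reads in these was not tested. Mpzl2, the next gene beyond Cd3e, gave 18, 34 and 40 counts in aged vehicle and 0, 2 and 4 in aged GB replicates, the other direction from Cd3e. Cd22 and Ms4a1 are overlapped by antisense genes with 0 to 4 counts in any library. Next to Cd22, Ffar1, a fatty acid receptor of pancreatic islets, gave 59 counts in young replicate 1 and 0 in the other 8 libraries. On one side of Blk, Gata4 gave 12 counts in young replicate 1 and 0 in the other 8 libraries. On its other side, Fam167a gave 205, 184 and 225 counts in young replicates. Next to Cd79a, the ribosomal protein gene Rps19 gave 7819, 6285 and 6285 counts in young replicates, and next to Cd79b, the muscle sodium channel gene Scn4a gave 41307, 30491 and 39960. Neither Rps19 nor Scn4a showed the pattern of the B cell member beside it.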

How the data were processed

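The authors deposited raw read counts per gene with a gene length, for 9 libraries of gastrocnemius RNA (3 per group), and these counts were used as deposited. Per the submitters' processing notes, FastQC, HISAT2, SAMtools and DESeq2 were used, and both GRCm39 and mm10 are named. Since the build of the counts is not settled, coordinates are those of the reference used here (RefSeq and GENCODE, GRCm38), not of the counts. No source used here gives the counting tool or strand setting. Per the labels' protocols, the library kit was KAPA mRNA HyperPrep. Groups and replicate numbers came from the sample titles.

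The members, the gene lists and the rule for named genes were chosen with earlier results of these data known. Named were the 8 members, the 15 genes highest in young replicate 1, the 10 genes most like the members, and up to 4 genes per list and comparison (called genes of smallest p, otherwise those of highest level). The organ lists and the genes Igkc, Iglc2, Jchain, Igha, Trac, Trbc2, Cd247, Cd4, Cd8a, Ccr7, Lck, Pax5, Ighd and Cr2 were added after their values were seen. Organ genes are named from those lists. Some genes that the rule names are not reported here.

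In R 4.3.3, edgeR 4.0.16 was fitted to all 9 libraries after filterByExpr (minimum count 10, minimum total 15), which left 17534 genes, with TMM factors, 1 mean per group and robust=TRUE. P-values are two-sided, adjusted by Benjamini-Hochberg over all genes tested, and called under 0.05. The SE is the size of the log2 fold change over the square root of F. Alternatives used other scalings and filters, DESeq2 1.42.0, limma-voom (limma 3.58.1), robust=FALSE, the compared groups alone, a block for replicate number and each library left out. A per-library offset for the trend with gene length (lowess, span 0.3) and intervals from single reads were added after seeing the data. Libraries of a group differed by more than sampling noise (chi-square per gene of 16.1 to 58.4). The procedure was tested on simulated counts with the same spread for every gene, no library set apart, and changes only in well counted genes. That test therefore does not cover genes with counts like those of the members. Total counts were 39478427 to 61680520 per library. Library sizes after TMM correction were 31260624 to 69475476, which put 3 counts at 0.0432 to 0.096 CPM.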

Additional observations from a re-analysis of the deposited data

How the results depend on the processing

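Depth limits the members: outside young replicate 1 the B cell genes held 0 to 31 counts per library. For the summed members, the ratio of young replicate 1 to the others was 89.6 to 121 (B cell) and 4.09 to 5.15 (T cell) over 4 alternatives each. With age, 1508 genes were called, 2400 by DESeq2 and 749 to 2010 without 1 library. With GB, 9326 were called and 8199 to 10451 over 20 alternatives. Library totals moved the split of GB calls from 4281 higher and 5045 lower to 2030 and 8421.

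Further B cell markers called with age numbered 1, and 2 with no filter and with the stricter filter, 3 with DESeq2 and 1 to 2 without 1 library. Further B cell markers called with GB numbered 1, and 0 with library totals and with no filter, 2 with DESeq2, robust=FALSE and only the groups compared, and 0 to 3 without 1 library. Further T cell markers called with age numbered 1, and 2 with no filter, 3 with DESeq2 and 0 to 1 without 1 library. Further T cell markers called with GB numbered 1, and 0 with library totals, no filter, the stricter filter, limma-voom and only the groups compared, 2 with DESeq2 and 0 to 2 without 1 library. With the stricter filter and with only the groups compared, Trbc1 did not pass the filter. The cause of the other changes was not tested.

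Log2 fold changes with GB that changed sign belong to members that were not called, Plcg1 and C1qa. Cd79a was at -0.065 with library totals, -0.18 with the replicate block and -0.15 with the length offset. Cd79b was at 0.02 without aged vehicle replicate 2 and 0.030 without GB replicate 3, and ranged from -0.65 to 0.030 without 1 library. Ms4a1 was at -0.16 with limma-voom. Cd22 was at -0.083 with library totals, -1.03 with limma-voom and -5.69 without GB replicate 2, and ranged from -5.69 to 1.06 without 1 library. Plcg1 was at 0.14 with the length offset, and C1qa (0.56) at -0.0026 with library totals and -0.24 with the length offset. With age, Igkc (-3.07) was at 0.16 with limma-voom and 2.73 without young replicate 1, with a range of -3.65 to 2.73 without 1 library. Ighm (-1.06) was at 0.15 without young replicate 1, with a range of -1.43 to 0.15.

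Deviations of same-numbered libraries had correlations from -0.0282 to 0.0302. Those of differently numbered libraries ran from -0.0404 to 0.0305, so these values gave no sign of pairing by number. They do not show whether replicate 1 stands apart within its group. The chi-square per gene did set it apart in each group. Pairs with replicate 1 gave 58.4 and 49.1 in young, 49.7 and 58.0 in aged vehicle and 30.7 and 46.8 in GB libraries. Replicates 2 and 3 gave 18.2, 16.1 and 16.5 in the same order of groups. The cause was not tested. With the replicate block 1312 genes were called with age and 8958 with GB, Cd3e was at 2.28 (adjusted p = 0.00121), and Cd3g at 2.89 (adjusted p = 0.215).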
